A study of Gossypium hirsutum with 6 samples.

Results

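The genes that lie around MML3 on chromosome D12 of upland cotton (*Gossypium hirsutum*) were compared between Xu142, a line with fiber, and its fiberless mutant *Xu142fl*. The members were taken by position alone, as all listed genes with IDs from Gh_D12G1550 to Gh_D12G1700 except MML3 itself (Gh_D12G1628). The IDs run in order along the chromosome, and no expression value of a member was used in the choice. The window was centred on MML3 because its loss in *Xu142fl* was already known from these data. The table analysed here listed 130 of the 150 possible IDs, out of 65894 genes in all, 65 of them before MML3 and 65 after it. Of these 130 members, 113 passed the filter on low values that all tests used, which kept genes whose 6 libraries averaged 0.1 FPKM or more. The other 17 were never above 0.26 FPKM in any library.

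MML3 is an R2R3-MYB transcription factor of the MIXTA-like group, and it is required for epidermal cells of the cotton ovule to start growing out as fibers. Upland cotton is an allotetraploid and carries a copy of MML3 in each subgenome, on A12 and on D12. A change in a promoter can touch a single gene. The loss of a chromosome segment or the spread of closed chromatin can touch genes that lie side by side. For this reason the neighbours of a gene that has lost its transcript are of interest, but no cause was tested here.

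Ovules collected at -3 and -1 DPA (days relative to anthesis, the opening of the flower) were mixed in each library, with 3 biological replicates for Xu142 and 3 for *Xu142fl*. Plants of both lines were grown in the field, *Xu142fl* is a mutant of Xu142, and how much of each stage went into a library was not given. RNA was sequenced and expression was given as FPKM, in which the fragments of a gene are divided by its transcript length and by the mapped reads of the library, so levels of different genes can be set side by side. In such whole ovules, fewer cells of a type and less RNA per cell cannot be told apart.

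The values analysed are FPKM without read counts, so no counting interval can be given for a gene. Summed over all genes, a library held from 804997 to 844877 FPKM. The 56395 tested genes were also reduced to principal components. Component 1 (51.1% of the variance) followed the lines. On component 2 (23.4%), Xu142 replicate 2 (-66.6) and *Xu142fl* replicate 1 (-100.5) stood away from the other libraries (24.0 to 50.3). Results that rest on these libraries are therefore also given without them. The IDs of MML3 on D12 and on A12 were taken from the study. The paper cites MML4 on D12 as the cloned *li3* gene of *Xu142fl*, but its text gives no ID for that copy. The ID that the paper gives for MML4 on A12 directly follows that of MML3 on A12. Whether MML4 on D12 likewise lies beside MML3, as one of the members, was not determined. The paper did not find MML4 on D12 among its differentially expressed genes. No source used here pairs the ID of a member with a name, and none of the 130 member IDs was found in the RefSeq gene table of assembly Gossypium_hirsutum_v2.1. Members are thus described by ID and by their distance from MML3 in ID numbers, without functions or coordinates. The tissue label was not checked against marker genes here.

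For MML3 on D12 itself, Xu142 replicates 1 to 3 gave 61.49, 54.55 and 51.83 FPKM and *Xu142fl* replicates 1 to 3 gave 0.18, 0.37 and 0.28 FPKM. Values of all genes below follow the same order of replicates. Among the genes of the window it ranked 7 of 131 in each Xu142 library and between 108 and 110 in the *Xu142fl* libraries. The 95% interval of its log2 fold change (*Xu142fl* against Xu142, on the scale of log2(FPKM + 0.1)) ran from -7.74 to -6.76. None of the 113 tested neighbours had an interval that reached this range. On this scale the estimate of a member at a few FPKM cannot fall that far even if its transcript is lost. Only 45 of the 130 members averaged 10 FPKM or more, so for the weaker ones the comparison says nothing. The lowest bound of any member was -3.65, for Gh_D12G1665, a gene 37 ID numbers after MML3 with 0.95, 0.59 and 2.12 FPKM in Xu142 and 0.61, 0 and 0.58 FPKM in *Xu142fl*. The A12 copy of MML3 (Gh_A12G1503) was lower in the mutant too, with 44.37, 35.25 and 36.67 FPKM in Xu142 and 7.76, 6.96 and 8.34 FPKM in *Xu142fl*. Its mean was 5.04-fold lower (log2 fold change -2.32, limma adjusted p = 0.00014).

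**Figure D1:**
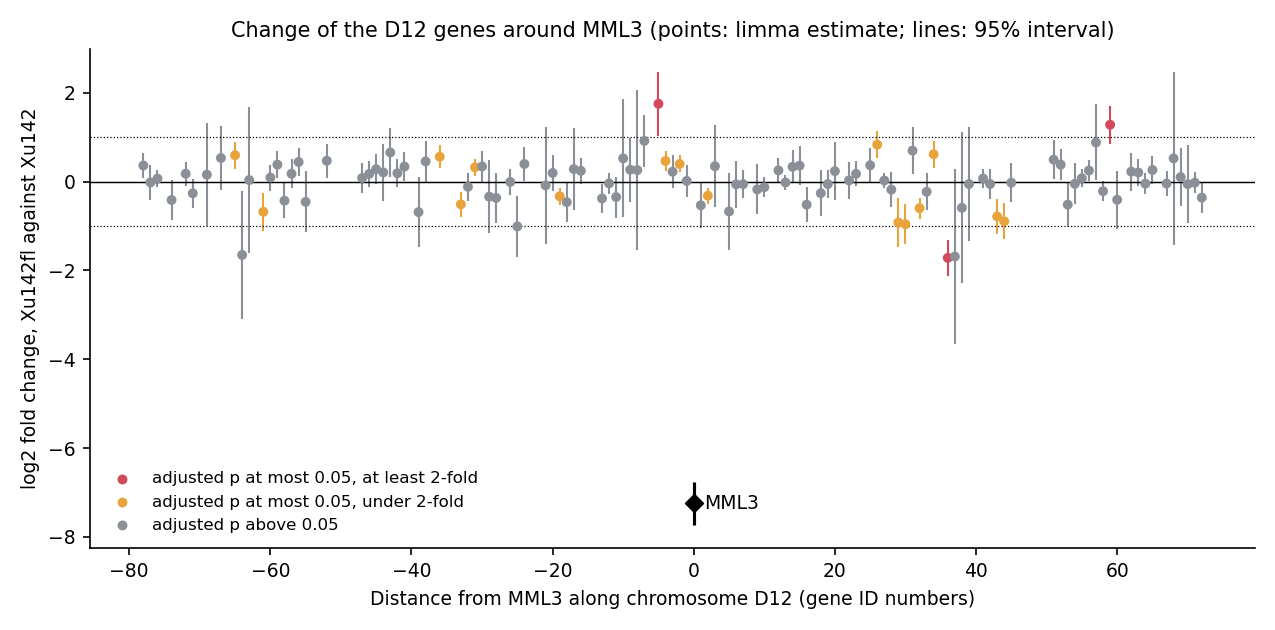
Log2 fold change of *Xu142fl* against Xu142 for the 113 tested genes around MML3, plotted against the distance from MML3 in ID numbers (points, limma estimate; vertical lines, 95% interval; dotted lines, 2-fold). MML3 lies at -7.25, far below all of its neighbours, of which 3 passed an adjusted p of 0.05 with at least 2-fold. Weakly expressed genes cannot fall as far on this scale.

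The 5 listed genes on each side of MML3 were expressed at mean levels between 0.317 and 39.6 FPKM. Gh_D12G1627, directly before MML3, had 8.73, 6.82 and 8.52 FPKM in Xu142 and 6.81, 8.80 and 8.76 FPKM in *Xu142fl*. The lines overlapped almost completely. Its log2 fold change was 0.016, with a 95% interval from -0.35 to 0.38 (limma adjusted p = 0.96), and its sign depended on which library was left out. Gh_D12G1629, directly after MML3, had 28.39, 21.55 and 19.04 FPKM in Xu142 and 14.28, 12.82 and 20.84 FPKM in *Xu142fl*. The highest mutant library lay above the lowest Xu142 library, so the lines overlapped. Its log2 fold change was -0.53, with an interval from -1.05 to -0.017 (limma adjusted p = 0.16).

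Farther out, 2 of the genes before MML3 were slightly higher in every mutant library. Gh_D12G1626 had 12.12, 12.44 and 11.99 FPKM in Xu142 and 16.23, 15.77 and 16.25 FPKM in *Xu142fl* (log2 fold change 0.40, standard error 0.081, limma adjusted p = 0.022). Gh_D12G1624 had 27.24, 32.50 and 28.32 FPKM against 42.30, 39.16 and 39.92 FPKM (0.47, standard error 0.094, limma adjusted p = 0.022). The opposite direction was seen after MML3, where Gh_D12G1630 had 45.02, 42.75 and 43.92 FPKM in Xu142 and 36.85, 34.63 and 34.27 FPKM in *Xu142fl* (-0.32, standard error 0.075, limma adjusted p = 0.036). These 3 differences were larger than the spread between replicates, and the ratio of mean levels was 1.38, 1.32 and 0.803 for Gh_D12G1624, Gh_D12G1626 and Gh_D12G1630.

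Gh_D12G1625, which lies between the pair that rose, had 21.47, 20.43 and 20.34 FPKM in Xu142 and 18.88, 27.07 and 27.84 FPKM in *Xu142fl*. *Xu142fl* replicate 1 lay below all Xu142 libraries and the other two above them. Its log2 fold change was 0.22 (limma adjusted p = 0.38), and it passed at 0.05 without *Xu142fl* replicate 1 (0.40, limma adjusted p = 0.020) and without both libraries that stood apart (0.39, limma adjusted p = 0.019). After MML3, Gh_D12G1634 had 3.40, 2.66 and 2.19 FPKM in Xu142 against 2.11, 2.84 and 2.90 FPKM in *Xu142fl*, and the lines overlapped. The weakest were Gh_D12G1631, with 0.71, 0.57 and 0.63 FPKM against 0.44, 0.92 and 1.38 FPKM, and Gh_D12G1633, with 0.46, 0.35 and 0.40 FPKM against 0.16, 0.38 and 0.15 FPKM. In both the lines overlapped. Gh_D12G1632 was not analysed here.

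The largest difference among the 10 nearest genes was an increase. Gh_D12G1623, 5 ID numbers before MML3, had 1.04, 1.12 and 0.60 FPKM in Xu142 and 2.35, 3.64 and 3.97 FPKM in *Xu142fl*. All mutant libraries lay above all Xu142 libraries, and the mean rose 3.61-fold. The log2 fold change was 1.75 (standard error 0.30, limma adjusted p = 0.013). Without *Xu142fl* replicate 2 it was 1.67 and no longer passed at 0.05 (limma adjusted p = 0.066), and over all alternatives the adjusted p ranged from 0.00843 to 0.066.

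Of the 10 nearest genes, 4 thus passed an adjusted p of 0.05 with no limit on the fold change, 3 higher and 1 lower, where 13.9% of all tested genes passed. This count rested on single libraries: it was 1 without Xu142 replicate 1, 2 without Xu142 replicate 2, 1 without Xu142 replicate 3, 0 without *Xu142fl* replicate 2 and 1 without *Xu142fl* replicate 3. In these fits the share of all tested genes that passed fell too, to 5.24%, 8.97%, 4.80%, 4.97% and 8.0%. The count was 5 without *Xu142fl* replicate 1, where 21.6% of all tested genes passed, and 5 without both libraries that stood apart, where 25.3% passed. In 6 of the 10 the 95% interval excluded a 2-fold change in either direction, and the lowest interval bound among the 10 was -1.54 (Gh_D12G1633).

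**Figure D2:**
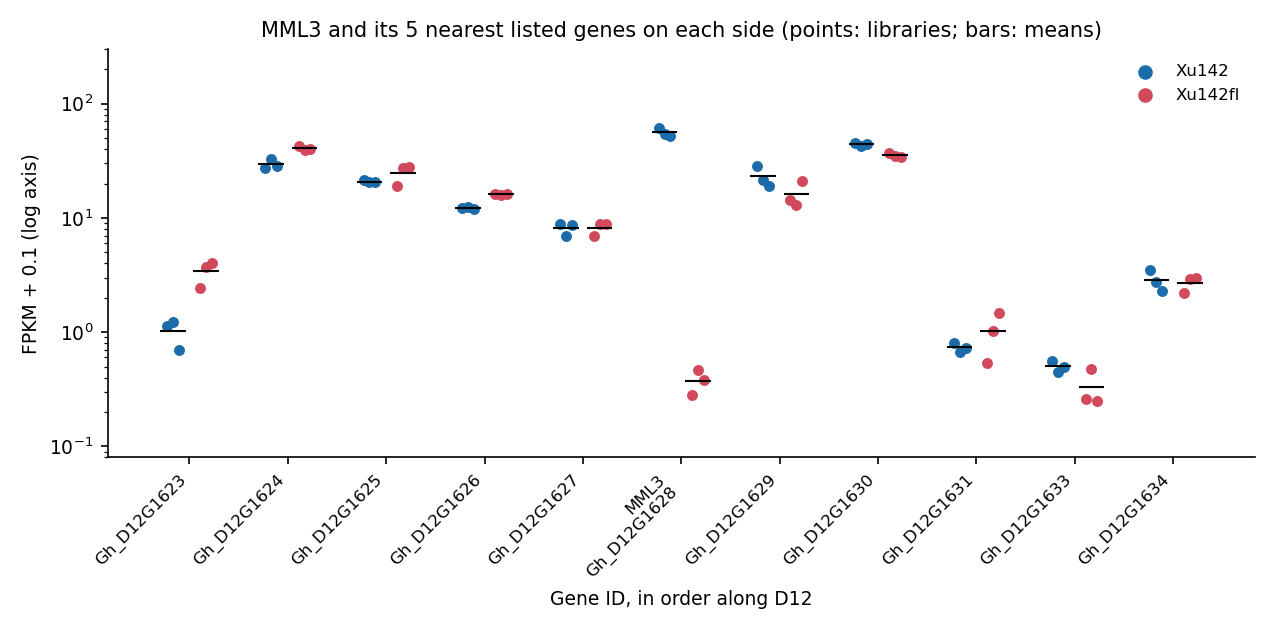
FPKM + 0.1 (log axis) of MML3 and the 5 nearest listed genes on each side, in ID order, in the 3 libraries of Xu142 and the 3 of *Xu142fl* (points, libraries; bars, means). MML3 falls from over 50 to under 0.4 FPKM, and none of the 10 neighbours changes as far, which the weaker ones could not on this scale. The largest change among them is that of Gh_D12G1623, which is higher in *Xu142fl*. The lines also do not overlap in Gh_D12G1624, Gh_D12G1626 and Gh_D12G1630.

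The study set its limits, an adjusted p of 0.001 and a change of 2-fold, on DEGseq, a test that was not run here. Whether the study called any member was not determined. By limma, no member of the whole window reached both limits, where 0.75% of all tested genes did (0.195% higher and 0.555% lower). The count was 0 in the 16 alternative fits too, but there only 0.00355% to 0.847% of all genes passed these limits, so a count at or near 0 says little about stability. At an unadjusted p under 0.05 there were 41 of the 113 members, where 29.9% of all tested genes passed. The lowest adjusted p of a member was 0.00189. With the limit on the adjusted p set to 0.05 and that of 2-fold kept, 3 of the 113 members (2.65%) were called, 2 higher and 1 lower in *Xu142fl*, where 6.14% of all tested genes were called (1.67% higher and 4.47% lower). In the rest of D12, 136 of 2041 tested genes were called by the same limits.

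These 3 members lay far from each other, at 5 ID numbers before MML3 and at 36 and 59 after it. Gh_D12G1664, at 36 after, had 78.37, 58.44 and 65.02 FPKM in Xu142 and 25.45, 18.99 and 17.20 FPKM in *Xu142fl*. Its lines were far apart, with the mean 3.27-fold lower in the mutant (log2 fold change -1.72, standard error 0.17, limma adjusted p = 0.0019), and it was called in all 16 alternative fits. In Xu142 it was one of the more abundant members, above the mean of MML3.

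Gh_D12G1687, at 59 after, had 9.43, 6.18 and 8.98 FPKM in Xu142 and 17.08, 21.50 and 20.90 FPKM in *Xu142fl*. The lines did not overlap, and the mean was 2.42 times as high in the mutant (log2 fold change 1.28, standard error 0.18, limma adjusted p = 0.0066). This gene was also called in all 16 alternatives. Its direct neighbour Gh_D12G1686 was the most abundant member, with 411.79, 361.93 and 416.84 FPKM in Xu142 and 340.76, 341.95 and 340.54 FPKM in *Xu142fl*. That neighbour was slightly lower in every mutant library and did not pass the test (log2 fold change -0.22, interval from -0.44 to 0.0057, limma adjusted p = 0.18).

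**Figure D3:**
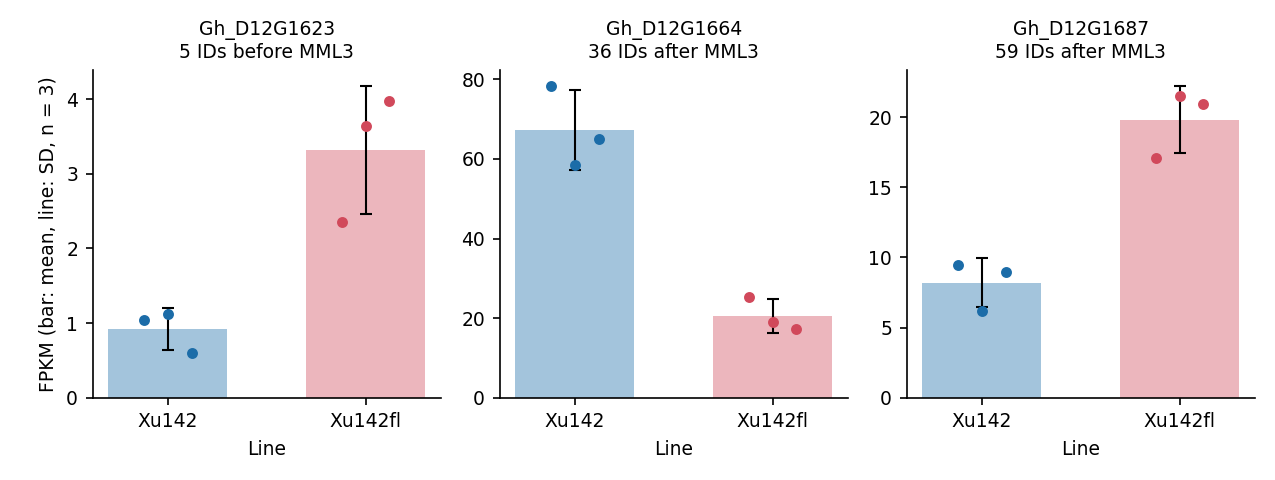
FPKM in each library for the 3 members that passed an adjusted p of 0.05 with at least 2-fold (points, libraries; bars, mean; lines, SD; n = 3 a line). Gh_D12G1623 and Gh_D12G1687 were higher in all *Xu142fl* libraries and Gh_D12G1664 lower, with no overlap between the lines.

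The count of 3 depended on the libraries. Without *Xu142fl* replicate 1, 8 members were called, 4 higher and 4 lower, where 8.17% of all tested genes were called in the same fit. The 3 members above were among the 8. The additional members lay 64 and 7 ID numbers before MML3 and 29, 30 and 57 after it. Without both libraries that stood apart the count was 6, where 8.28% of all tested genes were called. Without *Xu142fl* replicate 2 it was 2, where 3.49% of all tested genes were called.

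Another 3 members had a log2 fold change of 2-fold or more but did not pass at 0.05, all of them lower in *Xu142fl*. Gh_D12G1564, 64 ID numbers before MML3, had 5.77, 5.12 and 9.60 FPKM in Xu142 and 5.33, 1.78 and 0.84 FPKM in *Xu142fl*. *Xu142fl* replicate 1 lay among the Xu142 values, and without it the log2 fold change moved from -1.65 (limma adjusted p = 0.12) to -2.33 (limma adjusted p = 0.012). Gh_D12G1603, 25 before, had 5.28, 4.30 and 5.58 FPKM against 1.54, 2.77 and 3.41 FPKM, with no overlap (limma adjusted p = 0.065). The third was the weakly expressed Gh_D12G1665 given above (limma adjusted p = 0.23). By the ratio of means, 2-fold was also exceeded by Gh_D12G1621, 7 before MML3, with 0.46, 0.38 and 0.48 FPKM in Xu142 and 0.76, 0.98 and 1.03 FPKM in *Xu142fl*. Its lines did not overlap and the ratio was 2.1, while the log2 fold change was 0.92 (limma adjusted p = 0.055), and it was one of the members called without *Xu142fl* replicate 1.

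With no limit on the fold change, 19 of the 113 members (16.8%) passed at 0.05, 9 higher and 10 lower, where 13.9% of all tested genes passed. The 16 of them under 2-fold had log2 fold changes from -0.96 to 0.83. The count moved with the share of all tested genes that passed in the same fit. It was 3 without *Xu142fl* replicate 2 (4.97% of all genes), 31 without *Xu142fl* replicate 1 (21.6%) and 8 without *Xu142fl* replicate 3 (8.0%). It was 5, 8 and 4 without Xu142 replicate 1, 2 and 3 (5.24%, 8.97% and 4.80%), and 35 without both libraries that stood apart (25.3%). The lines did not overlap in 43 of the 113 members, 25 higher and 18 lower, or 38.1%, where 35.0% of all tested genes did not overlap (15.6% higher and 19.5% lower).

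The direction was mixed over the window as a whole. Of the 113 tested members, 60 had a log2 fold change above 0 and 53 below, with a median of 0.036 (quartiles -0.32 and 0.33). The median was 0.0083 over all tested genes, 0.00030 over the rest of D12 and 0.0039 over the window of the same width around MML3 on A12. That A12 window spans the ID of MML4 on A12, which the paper reports as lower in the mutant. In it 4 of 120 tested genes (3.33%) were called at 0.05 with at least 2-fold, all lower in *Xu142fl*. Of all tested genes, 6.14% were called and 4.47% were called lower. For 79 of the 113 D12 members (69.9%) the 95% interval excluded a 2-fold change in either direction, where this held for 61.8% of all tested genes. The median standard error of a member was 0.166 on the log2 scale.

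Passing members were also counted by position. Within 25 ID numbers on each side of MML3, 5 of 39 tested members (12.8%) passed at 0.05 without a limit on the fold change. Of all tested genes, 13.9% passed. Among the 10 nearest genes were 4 of these 5 members. The window was divided by distance from MML3 into segments of at most 28 ID numbers. In the segment from 25 to 1 before MML3, 4 of 20 tested members passed, and in that from 1 to 25 after MML3 it was 1 of 19. The corresponding median log2 fold changes were 0.23 and -0.053. In the segment from 26 to 50 after, 8 of 18 (44.4%) passed, 2 higher and 6 lower, with a median of -0.20. Each of the other segments held 1 to 3 passing members. The count of 4 in the segment directly before MML3 was 0 without *Xu142fl* replicate 2, where 4.97% of all tested genes passed. It was 8 of 19 (42.1%) without *Xu142fl* replicate 1, where 21.6% of all passed. It was 1, 2, 1 and 1 without Xu142 replicate 1, 2 and 3 and *Xu142fl* replicate 3, where 5.24%, 8.97%, 4.80% and 8.0% passed. Without both libraries that stood apart it was 7 of 20 (35.0%), where 25.3% passed.

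The 8 passing genes of the segment from 26 to 50 after MML3 ran in both directions. Near the called Gh_D12G1664, the gene at 34 after MML3 was higher, with 21.76, 21.51 and 22.42 FPKM in Xu142 and 40.89, 31.52 and 29.44 FPKM in *Xu142fl* (limma adjusted p = 0.026). The gene at 32 after was lower, with 33.44, 27.85 and 32.73 FPKM against 20.03, 19.89 and 21.92 FPKM (limma adjusted p = 0.012). The gene at 26 after had the largest increase of the segment, from 45.27, 40.60 and 46.36 FPKM to 67.96, 76.65 and 92.81 FPKM (log2 fold change 0.83, limma adjusted p = 0.0085). In none of these did the lines overlap, and higher and lower genes were interspersed along the order.

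The remaining 4 were lower in every mutant library. At 29 and 30 after MML3, side by side, the means were 3.33 ± 0.154 FPKM (SD, n = 3) and 4.39 ± 0.294 FPKM in Xu142 and 1.76 ± 0.520 and 2.24 ± 0.507 FPKM in *Xu142fl*. A second neighbouring pair, at 43 and 44 after, had 4.06 ± 0.609 and 13.8 ± 2.25 FPKM in Xu142 and 2.30 ± 0.166 and 7.36 ± 1.14 FPKM in *Xu142fl*. Their log2 fold changes lay between -0.96 and -0.78. The count of 8 in this segment ran from 2 (without Xu142 replicate 3 or *Xu142fl* replicate 2) to 9 (without *Xu142fl* replicate 1). It was 3, 4 and 5 without Xu142 replicate 1, Xu142 replicate 2 and *Xu142fl* replicate 3, and 9 without both libraries that stood apart. The shares of all genes that passed in these fits are those given above, from 4.80% to 25.3%.

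Members that stood next to each other in the table and were both tested formed 98 pairs. The sign of the log2 fold change was the same in 56 of them (57.1%), where it was the same in 52.0% of the 42487 such pairs over all annotated chromosomes. Pearson's r between the log2 fold changes of the adjacent genes was 0.20 in the window and 0.069 over all such pairs, as a description only, since a gene can stand in both of its neighbouring pairs and all genes share the same 6 libraries. In no pair were both members called in the same direction at 0.05 with at least 2-fold, where this held for 0.438% of all pairs. Across the 113 members, which are not independent replicates and share the same 6 libraries, Spearman's rho between the distance from MML3 and the size of the log2 fold change was -0.054.

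Levels along the chromosome differed far more between genes than between lines. Of the 130 members, 98 averaged 1 FPKM or more and 45 averaged 10 FPKM or more, with a median of 4.86 FPKM, where the median of all listed genes was 3.87 FPKM. After Gh_D12G1686, the next most abundant was Gh_D12G1608, 20 ID numbers before MML3, with 138.00, 183.93 and 144.28 FPKM in Xu142 and 214.01, 176.04 and 145.94 FPKM in *Xu142fl*. Its lines overlapped (limma adjusted p = 0.49). Across the tested members Pearson's r of the mean log2 levels of the lines was 0.969, where it was 0.949 over all tested genes. Genes are not independent replicates here.

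**Figure D4:**
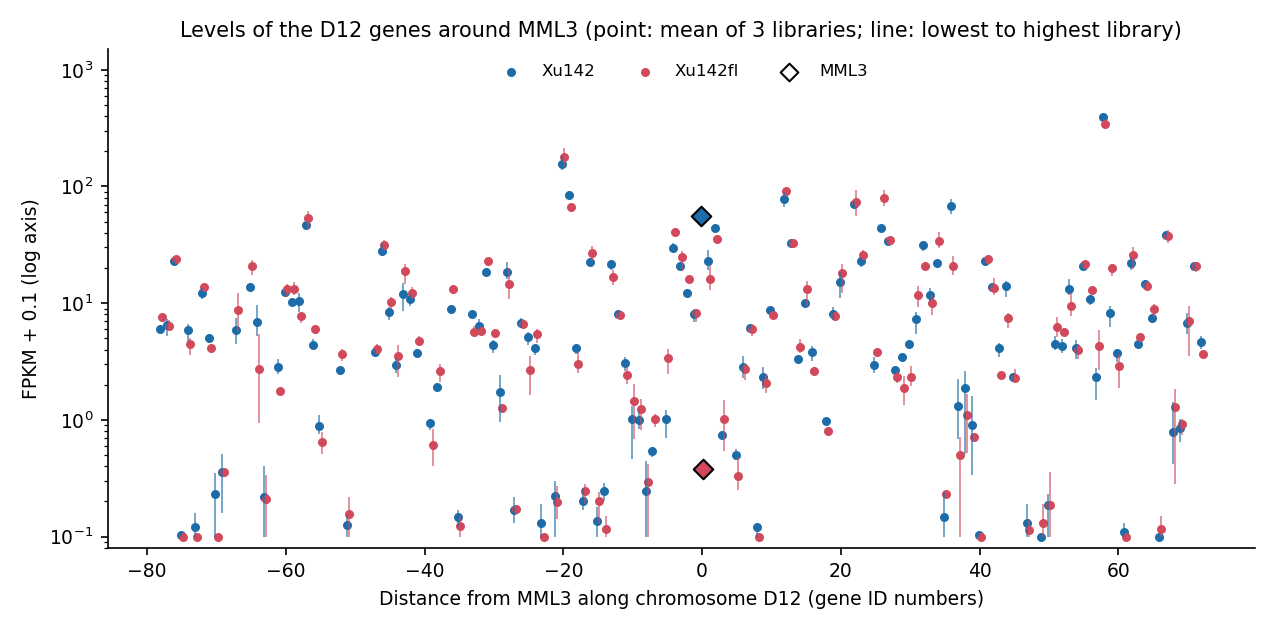
FPKM + 0.1 (log axis) of all 130 members and MML3 against the distance from MML3 in ID numbers (points, mean of 3 libraries of Xu142 or *Xu142fl*; lines, lowest to highest library; diamonds, MML3). Levels range from 0 to over 300 FPKM between genes, while the points of the 2 lines lie close together for most members and far apart for MML3.

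Summed over the 130 members, the Xu142 libraries held 1922, 1883 and 1931 FPKM and the *Xu142fl* libraries 1906, 1932 and 1934 FPKM, and the lines overlapped. Between replicates, the median absolute log2 difference of a tested member was lowest between Xu142 replicates 1 and 3 (0.129) and highest between *Xu142fl* replicates 1 and 3 (0.35). Among the weakest members, 7 were listed at 0 in all *Xu142fl* libraries and 2 in all Xu142 libraries. Their levels in the other line reached at most 0.25 and 0.09 FPKM, so no tested member was detected in 1 line alone.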

How the data were processed

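Expression was measured in 6 ovule libraries, 3 a line. After read filtering, the authors used Bowtie2 for known genes and HISAT2 with StringTie for new transcripts, all against the TM-1 genome, and deposited RSEM estimates as FPKM with 2 decimals. Beyond the division by mapped reads in FPKM, no further scaling was applied here except as an alternative. Where A and D copies of a gene are nearly identical, RSEM splits shared reads between them and their values are uncertain. The study's test, DEGseq, needs read counts and was not run.

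Here, log2(FPKM + 0.1) of the 56395 genes averaging 0.1 FPKM or more was fitted with limma 3.58.1 (intensity trend) in R 4.3.3, Benjamini-Hochberg adjusted over all of them, and checked on simulated data. Calls needed an adjusted p of at most 0.001 or 0.05 and at least 2-fold. Named genes are the 5 nearest on each side, the 2 of highest level, and MML3 with its A12 copy. The largest called changes were also named (up to 2 in each direction, mean at least 1 FPKM, no overlap). The members lying 64, 25 and 7 before and 37 after MML3, and those of the segment at 26 to 50 after, were picked after their values were seen. Members and rules were chosen with earlier results of these data known. Alternatives were other pseudocounts, filters, scalings, limma settings and windows, a replicate block and libraries left out.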

Additional observations from a re-analysis of the deposited data

How the results depend on the processing

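The counts of calls, the window median and the named genes were recomputed in 16 alternative fits (15 for Gh_D12G1631 and Gh_D12G1633, which a filter of 1 FPKM removes), and the calls at 0.05 and the median also in a narrower window, the calls with no limit on the fold change as well. Counts of members without overlap or with narrow intervals, adjacent pairs, correlations and the values of A12 and the rest of D12 were not recomputed. The window held 3 calls at 0.05 with at least 2-fold, and 1 within 25 ID numbers of MML3 on each side (6.14% of all tested genes). It held 6 without both libraries that stood apart (8.28% of all) and 2 to 8 with 1 library left out (3.44% to 8.17% of all). With no limit on the fold change it held 19 (13.9% of all). The cause of the rise without *Xu142fl* replicate 1 was not tested. The single call among the 10 nearest genes (Gh_D12G1623) became 0 with the replicate number as a block (replicate block, limma adjusted p = 0.059), and 0 to 1 with 1 library left out. Same-numbered libraries did not deviate together (r = -0.25, -0.23 and 0.14 for numbers 1, 2 and 3), while Xu142 replicate 2 and *Xu142fl* replicate 1 gave r = 0.40. With 3 libraries a line, such values do not settle whether the numbers pair samples. The replicate block left 2 calls in the window, where 3.63% of all tested genes were called. It left 3 members at 0.05 without a limit on the fold change, where 4.8% of all tested genes passed. The sign changed for 2 named genes whose log2 fold change lay near 0. For Gh_D12G1634 it was 0.011 under quantile normalization, 0.069 without both libraries that stood apart, and -0.21 to 0.098 with 1 library left out. For Gh_D12G1627 it was -0.095 to 0.14 with 1 library left out. The median over the window moved by less than 0.0952, the SD of the library medians in *Xu142fl*, in all alternatives. MML3 on D12 passed at 0.05 in all 16 fits (log2 fold change from -7.66 to -5.48). Without read counts, the depth behind genes under 1 FPKM is unknown.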
